A study of Homo sapiens with 6 samples.

Results

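Genes for eukaryotic translation initiation factors were followed in 786-O, a cell line from a human clear cell renal carcinoma, after knockdown of ALYREF, an adaptor protein that joins messenger RNA to the nuclear export machinery. The members are the rows whose symbol starts with EIF and a digit. EIF4A3, which works in the exon junction complex, and the kinases named EIF2AK were left out by the same rule. Of 51 rows with such a symbol 5 were left out, so that 46 members remained among 11679 genes. The cells had received ALYREF siRNA5 or ALYREF siRNA8, or a non-targeting control siRNA (NTC), with 2 libraries in each of the 3 groups. All 6 libraries came from cells grown in RPMI with 10% FBS, moved to fresh medium 24 h after transfection and collected at 48 h, and they hold polyadenylated RNA read as paired ends of 42 nt on a directional kit. Nothing in the labels says that duplicates were separate cultures, so the p-values reflect no more than the scatter of these libraries, which could be technical. The tables give no value per library: each gene has the authors' mean over all libraries and a log2 fold change with its standard error (SE) for each siRNA against the NTC.

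Initiation starts when eIF2 loads the initiator tRNA onto the small ribosomal subunit together with eIF1, eIF1A, eIF3 and eIF5. The eIF4F complex, made of the cap-binding protein eIF4E, the scaffold eIF4G and the helicase eIF4A, brings that subunit to the capped end of a messenger RNA, and the subunit scans to a start codon. Phosphorylation of eIF2 slows the recycling of eIF2 by eIF2B, and unphosphorylated 4E-binding proteins keep eIF4E away from eIF4G, so that stress and growth signals both act at this step.

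The mean normalized counts of the members ran from 36.0 for EIF3J-AS1 to 18748 for EIF4G2, with a median of 2204 against 459 for all genes, and 33 of the 46 members had a mean of at least 1000. ALYREF fell by 4.14 (SE 0.096) on the log2 scale under siRNA5 and fell by 3.67 (SE 0.085) under siRNA8 per the authors' deposited tables. Of 13 markers of the line 10 were measured, among them PAX8 at 2354, EPAS1 at 2207, PAX2 at 336 and ANPEP at 182. CA9, LRP2 and CUBN were not among the measured genes. Of 8 markers of immune, endothelial and stromal cells the 3 measured were CD68 at 202, COL1A1 at 48.5 and PDGFRB at 21.2. EIF4A1 and EIF3C were not analysed here. EIF4A3 gave 0.10 (SE 0.056) under siRNA5 and -0.00 (SE 0.056) under siRNA8 per the authors' deposited tables and was not called with either.

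With siRNA5, 11 of the 46 members rose, 8 fell and 27 did not pass the authors' DESeq2 Wald test at a Benjamini-Hochberg adjusted p under 0.05. The shares called among all genes were 24.4% higher and 22.0% lower, so the members' 23.9% and 17.4% lay near or below the background. With siRNA8, 17 members rose and 6 fell, while 23 did not pass. The background here was 21.0% higher and 20.5% lower, and the members' shares were 37.0% and 13.0%. In either direction the test called 46.4% of all genes under siRNA5 and 41.5% under siRNA8. Abundant genes are called more often: among genes whose mean was 1000 or more, 37.0% were higher and 24.4% lower under siRNA5 (61.4% in all), and 31.0% were higher and 25.0% lower under siRNA8 (55.9% in all). The 33 members at that level had 9 rises and 5 falls under siRNA5, and 14 rises, or 42.4%, and 1 fall, EIF4G2, under siRNA8. The median log2 change over the members was 0.02 under siRNA5 and 0.11 under siRNA8, and over all genes it was 0.01 with each. Both siRNAs are measured against the same NTC libraries, so their values below are set side by side and do not support each other. Most of the member changes were small: called members with an absolute log2 change of 0.32 or more numbered 4 higher and 4 lower under siRNA5, and 3 higher and 4 lower under siRNA8.

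**Figure D1:**
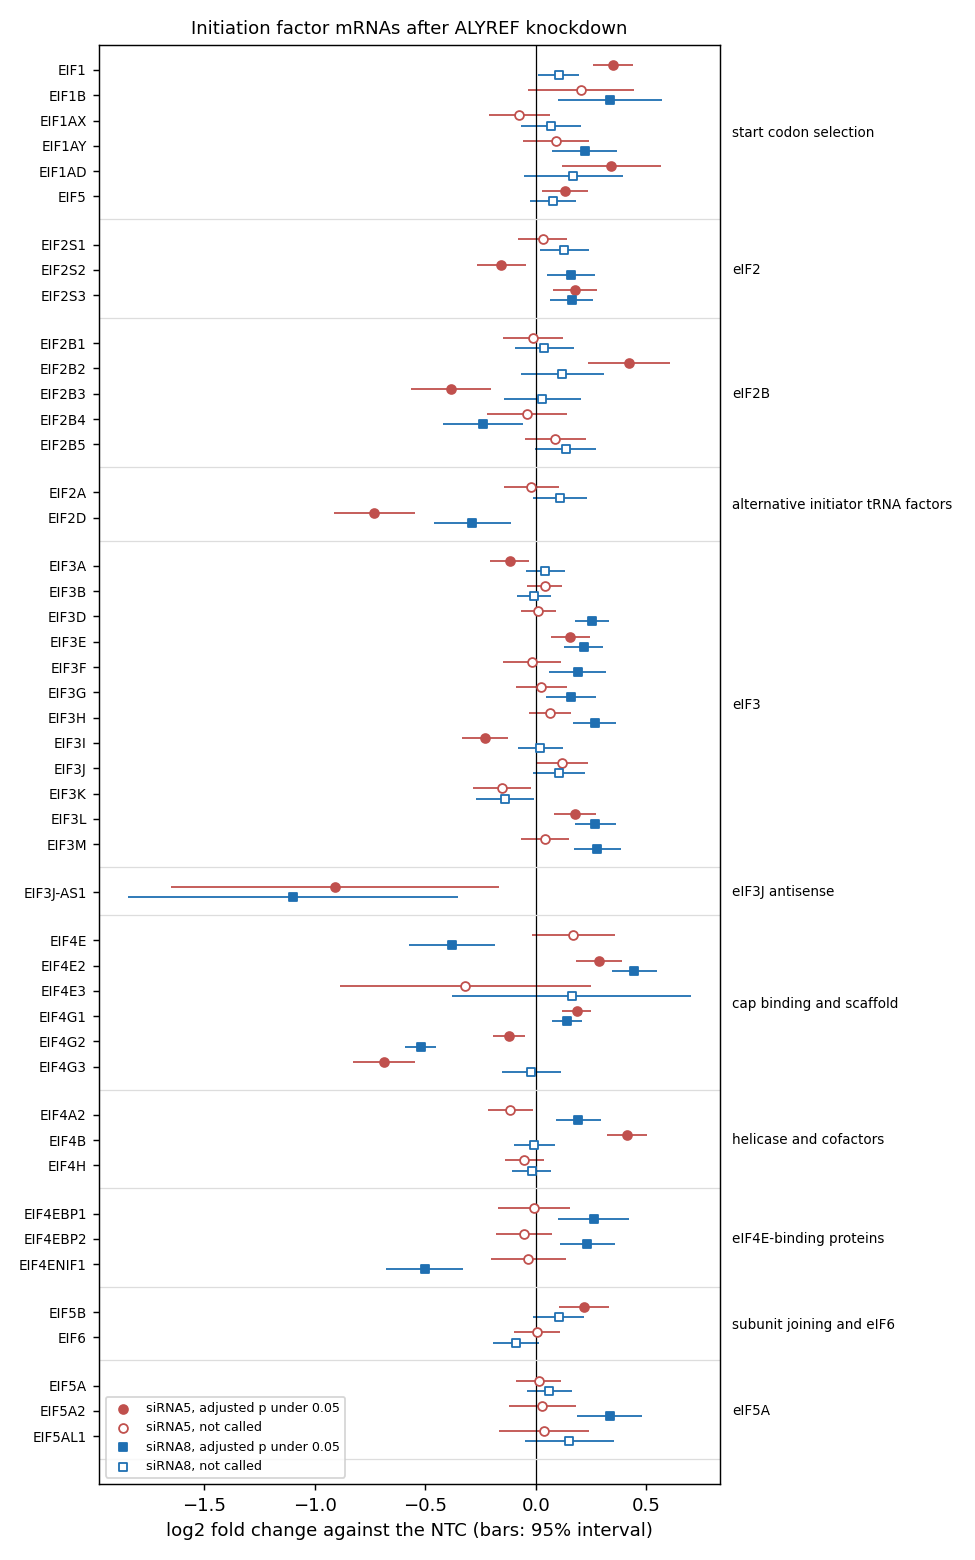
Log2 fold change of each of the 46 members against the NTC under siRNA5 (red circles, upper point) and siRNA8 (blue squares, lower point), grouped by role; bars are 95% intervals from the deposited SE, and filled points passed an adjusted p of 0.05. Among the 12 eIF3 subunits, 7 blue points are filled and all of these lie right of 0, while EIF4G2 and EIF4ENIF1 lie far left under siRNA8 and EIF4G3 and EIF2D under siRNA5.

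Of the 5 factors that take part in start codon selection (EIF1, EIF1B, EIF1AX, EIF1AY and EIF5), 2 rose under siRNA5 and 2 under siRNA8, where 24.4% of all genes rose under siRNA5 and 21.0% under siRNA8. EIF1AD, listed with them for its sequence and not for such a role, rose under siRNA5, and the medians over these 6 members were 0.17 under siRNA5 and 0.14 under siRNA8. EIF1 encodes eIF1, which keeps the scanning ribosome from settling on poor start codons. The level of EIF1 rebuilt from the deposited mean and fold changes was 5769 normalized counts under siRNA5 and 4865 under siRNA8, against 4531 in the NTC. In the authors' deposited tables its change was 0.35 (SE 0.047, DESeq2 adjusted p = 1.26e-12) under siRNA5 and 0.10 (SE 0.047) under siRNA8, which was not called. EIF1AD, a nuclear protein with an eIF1A-like domain, rose by 0.34 (SE 0.11) under siRNA5 and stood at 0.17 (SE 0.11), not called, under siRNA8 per the authors' deposited tables. EIF1B, a paralogue of EIF1, rose by 0.33 (SE 0.12) under siRNA8 per the authors' deposited table and was not called under siRNA5, at 0.20 (SE 0.12). EIF5, which triggers GTP hydrolysis by eIF2 when the start codon is found, rose by 0.13 (SE 0.053) under siRNA5 and gave 0.08 (SE 0.053), not called, under siRNA8 per the authors' deposited tables. The eIF1A paralogue EIF1AY rose under siRNA8, by 0.22 (SE 0.074) per the authors' deposited table, and EIF1AX was called with neither.

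The 3 subunits of eIF2 did not move as one under siRNA5. EIF2S1, the alpha subunit that stress kinases phosphorylate, gave 0.03 (SE 0.057) under siRNA5 and 0.13 (SE 0.056, DESeq2 adjusted p = 0.0554) under siRNA8 per the authors' deposited tables and was called with neither. EIF2S2, the beta subunit, had a rebuilt level of 2558 under siRNA5 and 3180 under siRNA8, against 2850 in the NTC. It was the only member called in opposite directions: it fell by 0.16 (SE 0.056) under siRNA5 and rose by 0.16 (SE 0.055) under siRNA8 per the authors' deposited tables. EIF2S3, the gamma subunit that binds GTP and the initiator tRNA, rose with both, by 0.18 (SE 0.051) under siRNA5 and 0.16 (SE 0.051) under siRNA8 per the authors' deposited tables. Parts of EIF2S2 and EIF2S3 have near-identical copies: 24.9% and 26.8% of their 42-base words also lie in other genes, so their counts are less certain.

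Among the 5 subunits of eIF2B, the factor that exchanges GDP for GTP on eIF2, the changes were limited to EIF2B2, EIF2B3 and EIF2B4. EIF2B2, a regulatory subunit, rose by 0.42 (SE 0.095, DESeq2 adjusted p = 4.75e-05) under siRNA5 and gave 0.12 (SE 0.096), not called, under siRNA8 per the authors' deposited tables. EIF2B3, the partner of the catalytic subunit, fell by 0.38 (SE 0.092, DESeq2 adjusted p = 0.000153) under siRNA5 and stood at 0.03 (SE 0.089), not called, under siRNA8 per the authors' deposited tables. EIF2B4, another regulatory subunit, was called under siRNA8 alone, where it fell by 0.24 (SE 0.093) per the authors' deposited table. EIF2B1 and the catalytic EIF2B5 were called with neither siRNA.

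EIF2D, which can place tRNA on the ribosome without eIF2 and takes part in recycling small subunits, fell with both siRNAs. Its rebuilt level was 499.7 under siRNA5 and 679.5 under siRNA8, against 829 in the NTC. The fall was 0.73 (SE 0.094, DESeq2 adjusted p = 1.46e-13) under siRNA5, to 60.3% of the NTC level, and 0.29 (SE 0.090, adjusted p = 0.00481) under siRNA8 per the authors' deposited tables. EIF2A, the other factor of this kind, gave -0.02 (SE 0.063) under siRNA5 and 0.11 (SE 0.063) under siRNA8 per the authors' deposited tables, neither of them called.

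The eIF3 complex is the large scaffold on the small subunit that holds the other factors and contacts eIF4G, and 12 of its genes were measured. With siRNA8, 7 of the 12 rose and 5 did not pass, a share of 58.3% against the 31.0% of genes with a mean of 1000 or more, a level all 12 exceed. No subunit fell by the authors' DESeq2 test under siRNA8, and at an unadjusted p under 0.05 there was 1, EIF3K. With siRNA5, 2 rose, 2 fell and 8 did not pass. These shares, 16.7% higher and 16.7% lower, lay below the 37.0% and 24.4% of genes with a mean of 1000 or more. The median log2 change of the complex was 0.03 under siRNA5 and 0.17 under siRNA8. EIF3L rose with both siRNAs, by 0.18 (SE 0.048) under siRNA5 and 0.27 (SE 0.048) under siRNA8, and EIF3E did so as well, by 0.15 (SE 0.045) under siRNA5 and 0.22 (SE 0.045) under siRNA8, per the authors' deposited tables. EIF3L has 45.2% of its 42-base words in other genes. EIF3D, which can itself bind the cap of some messenger RNAs, had a rebuilt level of 5210 under siRNA5 and 6165 under siRNA8, against 5174 in the NTC. EIF3H and EIF3M had rebuilt levels of 5159 and 2915 under siRNA5 and of 5933 and 3432 under siRNA8, against 4936 and 2833 in the NTC. The rises of these 3 under siRNA8 were 0.25 (SE 0.040) for EIF3D, 0.27 (SE 0.049) for EIF3H and 0.28 (SE 0.054) for EIF3M per the authors' deposited table, where under siRNA5 none of the 3 was called. EIF3F and EIF3G, a subunit that takes part in scanning, rose by 0.19 (SE 0.066) and 0.16 (SE 0.058) under siRNA8 per the authors' deposited table. EIF3A, the largest subunit and the core of the complex, fell by 0.12 (SE 0.045), and EIF3I, on the side that meets eIF3b and eIF3g, fell by 0.23 (SE 0.053), both under siRNA5 per the authors' deposited table. Neither was called under siRNA8, at 0.04 (SE 0.045) for EIF3A and 0.02 (SE 0.053) for EIF3I per the authors' deposited table. EIF3B, EIF3J and EIF3K were called with neither siRNA. EIF3K was below the NTC with both, at -0.15 (SE 0.068, DESeq2 adjusted p = 0.0507) under siRNA5 and -0.14 (SE 0.067, DESeq2 adjusted p = 0.081) under siRNA8 per the authors' deposited tables.

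EIF3J-AS1, which RefSeq names EIF3J-DT, is a long non-coding RNA that starts beside EIF3J and not a translation factor. It fell with both siRNAs, by 0.91 (SE 0.38) under siRNA5 and by 1.10 (SE 0.38) under siRNA8 per the authors' deposited tables. The rebuilt levels were 28.8 normalized counts under siRNA5 and 25.2 under siRNA8, against 54.0 in the NTC, so these values rest on few reads. The sources used here do not say how the counting treated strand, so reads from any stretch where EIF3J and this RNA overlap cannot be assigned with certainty.

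Several eIF3 genes share a feature that the symbols do not carry: a run of C and T from the very start of the transcript, the layout of the terminal oligopyrimidine (TOP) motif through which growth signals control translation of many ribosomal protein messages. A start was counted as TOP-like when it had C followed by at least 4 letters that are C or T, on the gene's own strand, at the start annotated by RefSeq (GRCh38.p14). This held for 1429 of 35116 promoters, or 4.07%. A gene can have several promoters, so that share does not match a count of genes. Counted by gene, 682 genes had such a start and 8405 did not, and 9 of the 38 members with a promoter entry had one. EIF3A, EIF3E, EIF3G, EIF3H and EIF3L had no entry, and all of these but EIF3A rose under siRNA8. The 5 shown here are those that rose under siRNA8, with the pyrimidine run in capitals.
EIF4A2 (chr3:186783562-186783591, + strand): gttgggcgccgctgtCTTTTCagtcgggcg
EIF3F (chr11:7987322-7987351, + strand): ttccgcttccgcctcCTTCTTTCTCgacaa
EIF3M (chr11:32583816-32583845, + strand): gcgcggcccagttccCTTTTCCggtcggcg
EIF3D (chr22:36529152-36529181, - strand): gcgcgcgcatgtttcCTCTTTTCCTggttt
EIF2S3 (chrX:24054941-24054970, + strand): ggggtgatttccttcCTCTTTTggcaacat
The other TOP-like members were EIF2D, which fell under siRNA8, and EIF2A, EIF3K and EIF4B, which were not called there. Of the 9 TOP-like members 5 rose under siRNA8 and 2 under siRNA5, and of the 29 other members with an entry 6 rose under siRNA8 and 7 under siRNA5. Over all genes the feature did not go with a rise: 21.4% of the 682 genes with a TOP-like start and 21.7% of the 8405 without were higher under siRNA8. Under siRNA5 the shares were 21.6% and 25.3%.

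The cap-binding and scaffold genes held the largest changes among the protein-coding members with a mean of at least 1000, and the siRNAs differed there. EIF4G1, the main scaffold of eIF4F, had a rebuilt level of 17822 under siRNA5 and 17310 under siRNA8, against 15692 in the NTC. It rose with both, by 0.18 (SE 0.034, DESeq2 adjusted p = 6e-07) under siRNA5 and 0.14 (SE 0.034, adjusted p = 0.000185) under siRNA8 per the authors' deposited tables. EIF4G3, a second scaffold that can replace EIF4G1, had a rebuilt level of 1014 under siRNA5 and 1609 under siRNA8, against 1632 in the NTC. Only the siRNA5 level stood apart: the change was -0.69 (SE 0.071, DESeq2 adjusted p = 2.28e-20) under siRNA5 and -0.02 (SE 0.068), not called, under siRNA8 per the authors' deposited tables. EIF4G2, also called DAP5, lacks the eIF4E-binding part and serves initiation that does not use eIF4E. Its rebuilt level was 19759 under siRNA5 and 14980 under siRNA8, against 21505 in the NTC. It fell with both siRNAs, by 0.12 (SE 0.036) under siRNA5 and by 0.52 (SE 0.036, DESeq2 adjusted p = 1.4e-44) under siRNA8 per the authors' deposited tables.

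EIF4E, the cap-binding protein itself, had a rebuilt level of 701 under siRNA5 and 479 under siRNA8, against 624 in the NTC. It fell by 0.38 (SE 0.099, DESeq2 adjusted p = 0.000547) under siRNA8 and gave 0.17 (SE 0.096), not called, under siRNA5 per the authors' deposited tables. EIF4E2, also called 4EHP, binds the cap without eIF4G and represses translation. Its rebuilt level was 2602 under siRNA5 and 2907 under siRNA8, against 2134 in the NTC. The rises, 0.29 (SE 0.054, DESeq2 adjusted p = 6.57e-07) under siRNA5 and 0.45 (SE 0.053, adjusted p = 8.48e-16) under siRNA8 per the authors' deposited tables, made EIF4E2, with EIF1B and EIF5A2, 1 of the 3 members that rose by 0.32 or more under siRNA8. EIF4E3, the least abundant cap-binding gene at a mean of 62.4, was not called with either siRNA, and the 95% interval of its difference between the siRNAs was wide, -1.27 to 0.30.

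**Figure D2:**
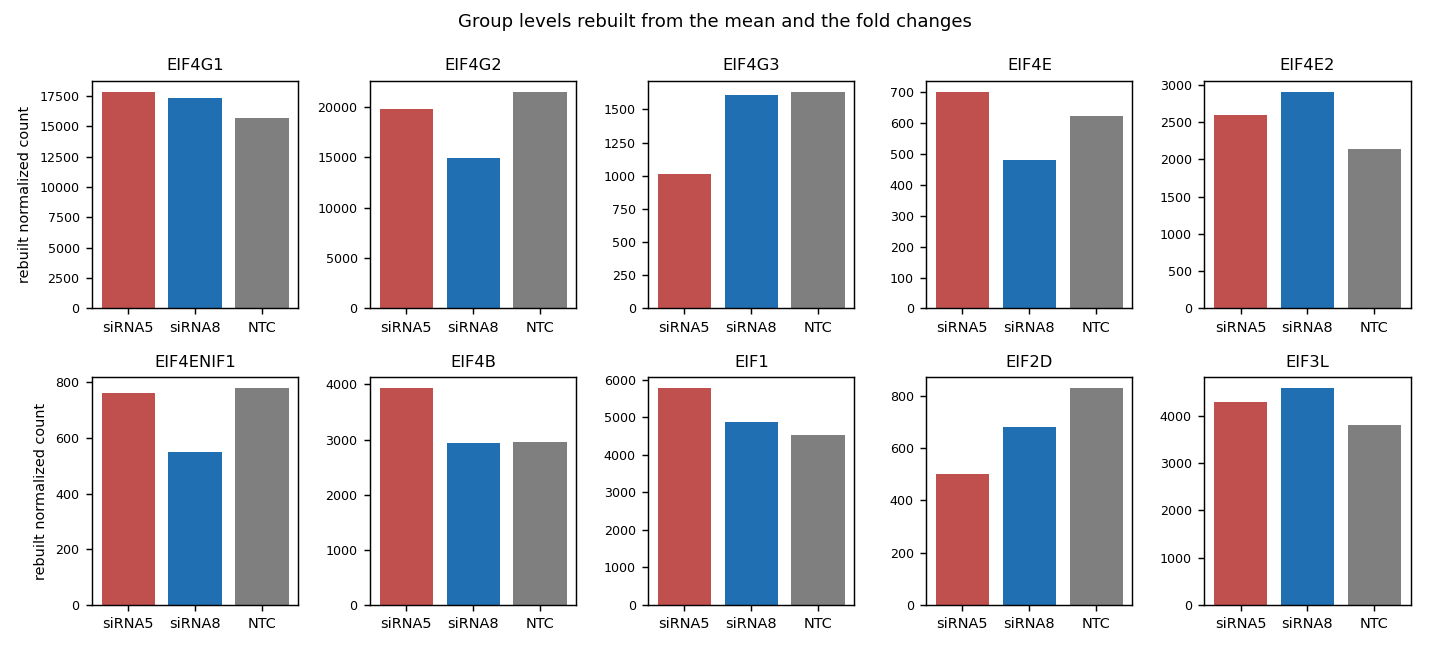
Group levels of 10 members in normalized counts, rebuilt from the deposited mean and the fold changes, under siRNA5 in red, siRNA8 in blue and the NTC in grey; each axis starts at 0, each gene has its own scale, and there are no error bars because the tables hold no value per library. EIF4G3 is low under siRNA5 alone (1014), EIF4G2, EIF4E and EIF4ENIF1 are lowest under siRNA8, and EIF4B is high under siRNA5 alone (3931).

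The helicase EIF4A2, which unwinds the leader of the message, was called under siRNA8 alone. It gave -0.12 (SE 0.053, DESeq2 adjusted p = 0.0576) under siRNA5 and rose by 0.19 (SE 0.051) under siRNA8 per the authors' deposited tables. EIF4B, which stimulates the helicase, had a rebuilt level of 3931 under siRNA5 and 2939 under siRNA8, against 2953 in the NTC. Its rise under siRNA5 was 0.41 (SE 0.047, DESeq2 adjusted p = 3.45e-17), and the value under siRNA8 was -0.01 (SE 0.048) per the authors' deposited tables. Copies elsewhere in the genome hold 33.4% of the 42-base words of EIF4B. EIF4H, another helicase cofactor, was called with neither.

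Of the 3 genes for eIF4E-binding proteins, 2 rose and 1 fell under siRNA8, where 41.5% of all genes were called in either direction. None of the 3 was called under siRNA5 by the authors' DESeq2 test, where also none had an unadjusted p under 0.05. The translational repressors EIF4EBP1 and EIF4EBP2 rose by 0.26 (SE 0.082) and 0.23 (SE 0.063) under siRNA8 per the authors' deposited table. The values under siRNA5 were -0.01 (SE 0.084) for EIF4EBP1 and -0.05 (SE 0.065) for EIF4EBP2 per the authors' deposited table. EIF4ENIF1, or 4E-T, which carries eIF4E into the nucleus and links it to mRNA decay, had a rebuilt level of 760.3 under siRNA5 and 549 under siRNA8, against 779 in the NTC. It fell by 0.50 (SE 0.089, DESeq2 adjusted p = 1.43e-07) under siRNA8 and gave -0.03 (SE 0.086), not called, under siRNA5 per the authors' deposited tables.

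Of the late-acting factors, EIF5B, the GTPase that joins the subunits, rose by 0.22 (SE 0.058, DESeq2 adjusted p = 0.00073) under siRNA5 and gave 0.10 (SE 0.058), not called, under siRNA8 per the authors' deposited tables. EIF6, which keeps the large subunit from joining too early, gave 0.01 (SE 0.053) under siRNA5 and -0.09 (SE 0.053) under siRNA8 per the authors' deposited tables and was called with neither. EIF5A, the hypusine-bearing factor that eases peptide bond formation, gave 0.01 (SE 0.052) under siRNA5 and 0.06 (SE 0.052) under siRNA8 per the authors' deposited tables, not called with either, and shares 37.4% of its 42-base words with other genes, mainly EIF5AL1. EIF5AL1 was not called either. EIF5A2, the second eIF5A isoform, rose by 0.33 (SE 0.074, DESeq2 adjusted p = 4.32e-05) under siRNA8 and gave 0.03 (SE 0.077), not called, under siRNA5 per the authors' deposited tables.

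The siRNAs were then compared with each other through the difference of their log2 fold changes. By a normal two-sided test with Benjamini-Hochberg adjustment over all genes, 5 members were higher and 12 lower under siRNA5 than under siRNA8, and 29 did not pass. Of all genes 17.2% were higher and 14.8% lower, 32.0% in either direction, and among those whose mean was 1000 or more 28.2% were higher and 21.4% lower, 49.5% in either direction. The members' share in either direction was 37.0%, and it was 39.4% for members with a mean of 1000 or more, below that of such genes. ALYREF itself was lower under siRNA5, by 0.47 (SE 0.13, adjusted p = 0.00152) on the log2 scale, and the part of this gap in the member differences was not tested. The 5 members that were higher under siRNA5 than under siRNA8 were EIF4E at 0.55 (SE 0.14), EIF4ENIF1 at 0.47 (SE 0.12), EIF4B at 0.42 (SE 0.067), EIF4G2 at 0.40 (SE 0.051) and EIF1 at 0.25 (SE 0.066). The eIF4 family went both ways: of its 12 genes 4 were higher and 3, EIF4G3, EIF4A2 and EIF4EBP2, were lower. Of the 12 that were lower under siRNA5 than under siRNA8, 5 were eIF3 subunits (EIF3A, EIF3D, EIF3H, EIF3I and EIF3M), with differences between -0.25 and -0.16. The other 7 ran from -0.67 (SE 0.098) for EIF4G3 to -0.29 (SE 0.090) for EIF4EBP2 and included EIF2D, EIF2B3, EIF2S2, EIF4A2 and EIF5A2. EIF4G1, EIF4E2, EIF2S3, EIF3E and EIF3L, called higher with each siRNA, did not pass this test after adjustment. With the shared control variance rebuilt from the tables, EIF4E2 did pass (adjusted p = 0.00602), as did EIF3F, EIF3G and EIF4EBP1, all lower under siRNA5 than under siRNA8, and EIF2B2, which was higher. Without adjustment, the 95% interval of the difference was -0.05 to 0.14 for EIF4G1 and -0.31 to -0.01 for EIF4E2.

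**Figure D3:**
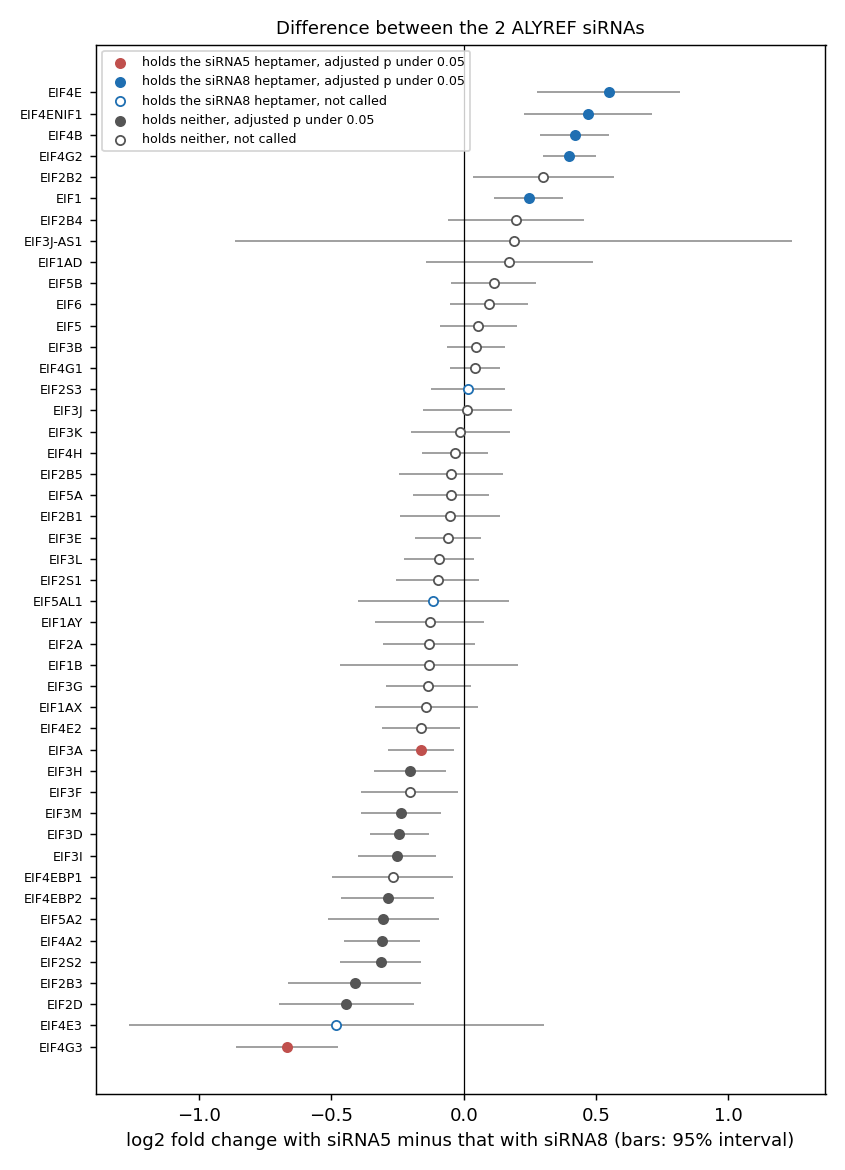
Log2 fold change under siRNA5 minus that under siRNA8 for the 46 members, ordered by size, with 95% intervals as bars; filled points passed an adjusted p of 0.05, and colours show which members hold the ACTAGAA (blue) or the AACGCTG heptamer (red) in their transcript. The 5 filled points right of 0 are all blue, and the lowest point, EIF4G3 at -0.67, is red.

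The members on which the siRNAs differed were also compared by sequence, because an siRNA can act on transcripts that match a short stretch of it. The siRNA sequences are not given in the labels. For each siRNA, the heptamer of the ALYREF transcript whose presence in the 3' UTR went with the lowest shift in log2 change, in units of its error and after allowing for 3' UTR length, was therefore taken over 9024 other genes with a mean of at least 100, a choice made after the values were seen and without the members. For siRNA5 this was AACGCTG, held by 268 genes or 2.97%, with a mean log2 change of -0.22 in holders and 0.01 in the rest. For siRNA8 it was ACTAGAA, held by 1024 genes or 11.3%, with a mean of -0.15 in holders and 0.01 in the rest. Under the other siRNA the holders' means were -0.06 for AACGCTG and 0.10 for ACTAGAA. The siRNA5 choice was the less stable: with a minimum mean of 500, AACGCTG ranked 17 among all heptamers and the choice fell on an unrelated one, while ACTAGAA ranked 2 and the choice fell on the same ALYREF site moved by 1 letter. The means there were -0.19 in AACGCTG holders and 0.04 in the rest under siRNA5, and -0.18 in ACTAGAA holders and 0.02 in the rest under siRNA8. A heptamer match is a description of letters, and whether either siRNA pairs there was not tested.

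The sites are shown for ALYREF and for the members that fell with the siRNA concerned, from the transcripts of GENCODE 29 (GRCh38) on the sense strand, with the heptamer in capitals. The first 3 lines hold AACGCTG (siRNA5) and the rest ACTAGAA (siRNA8).
ALYREF coding (chr17:81889294-81889318, - strand): tgaatttggAACGCTGaagaaggcg
EIF4G3 coding (chr1:20865251-20879335, - strand, across an intron): atgtctagtAACGCTGaaagtaccc
EIF3A 3' UTR (chr10:119034808-119034832, - strand): tttccttgtAACGCTGtcctctgag
ALYREF coding (chr17:81888384-81888408, - strand): ggtggcatgACTAGAAaccgtggcg
EIF4E 3' UTR (chr4:98880214-98880238, - strand): acattcctaACTAGAAttagtatgt
EIF4ENIF1 coding (chr22:31462978-31463002, - strand): tgataagatACTAGAAgaagatcac
EIF4G2 coding, site 1 (chr11:10804137-10804161, - strand): gaaaaccgaACTAGAAatgttgatg
EIF4G2 coding, site 2 (chr11:10800202-10800226, - strand): agctcaaccACTAGAAagtggcacc
The match to ALYREF runs over 9 letters in EIF4G3, over 8 in each EIF4G2 site, and over the 7 of the heptamer in EIF3A, EIF4E and EIF4ENIF1. It is as long in members that did not fall under siRNA8: 9 letters in EIF5AL1, which was not called, 8 in EIF2S3, which rose, 8 in EIF4E3, which was not called, and 7 in EIF1 and EIF4B, which were not called. Anywhere in the transcript, AACGCTG lies in 9.55% and ACTAGAA in 18.6% of the other genes with a mean of at least 100.

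Of the 45 protein-coding members, 2 hold AACGCTG and both fell under siRNA5, EIF4G3 by 0.69 and EIF3A by 0.12, per the authors' deposited table. Among the 43 that do not hold it, 5 fell and 11 rose under siRNA5. ACTAGAA lies in 8 members, of which EIF4E, EIF4ENIF1 and EIF4G2 fell under siRNA8, EIF2S3 rose, and EIF1, EIF4B, EIF4E3 and EIF5AL1 were not called. Among the 37 members without ACTAGAA, 2 fell under siRNA8, EIF2B4 and EIF2D, and 16 rose. For the other genes with a mean of at least 100, 34.3% of holders of ACTAGAA and 19.8% of genes without it were lower under siRNA8, and for AACGCTG and siRNA5 the shares were 36.9% and 22.7%. These shares include the 3' UTR holders on which the heptamers were chosen. The sites in EIF4G3, EIF4ENIF1 and EIF4G2 are coding, and of other genes with the heptamer only outside the 3' UTR, 26.8% were lower under siRNA8 for ACTAGAA (mean log2 change -0.03) and 32.6% under siRNA5 for AACGCTG (mean log2 change -0.07). All 5 members that were higher under siRNA5 than under siRNA8 hold ACTAGAA, against 33.5% of the 1891 other genes called in that direction. A site anywhere in the transcript counts here, with no allowance for transcript length, and longer transcripts hold a given heptamer more often. The EIF4E transcript has 11523 bases. EIF1 and EIF4B, which are among these 5, differ between the siRNAs through a rise under siRNA5 and not through a fall under siRNA8. EIF2B2, the further member called higher when the control variance is rebuilt, holds neither heptamer. Without the holders of its heptamer, 6 members fell under siRNA5 and 3 under siRNA8.

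**Figure D4:**
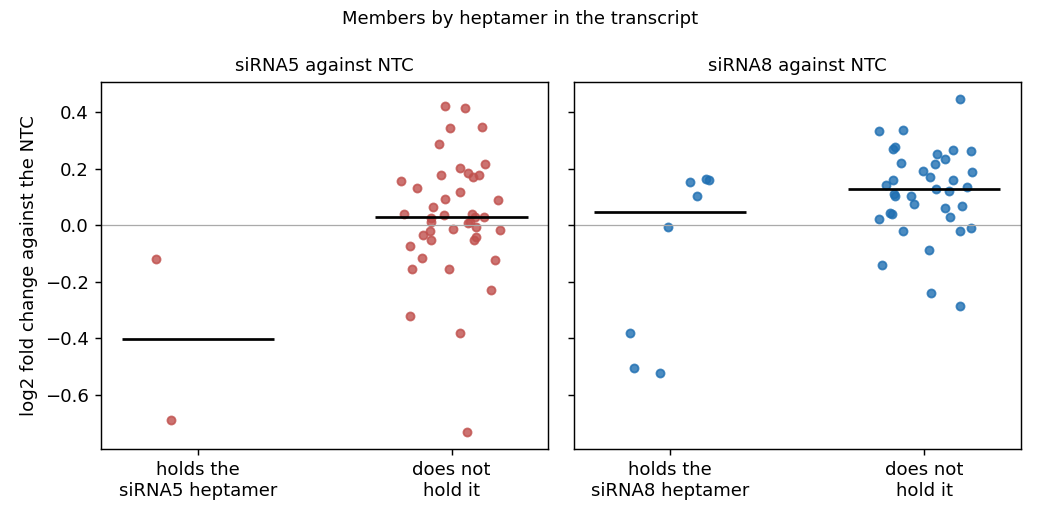
Log2 fold change against the NTC of the 45 protein-coding members that hold the siRNA's heptamer (left in each panel) or do not (right), under siRNA5 and AACGCTG in the left panel and siRNA8 and ACTAGAA in the right; black lines are medians, and the sideways spread of points has no meaning. The 8 holders of ACTAGAA fall into 3 members between -0.52 and -0.38 and 5 members between -0.01 and 0.16.

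Around the members, 61 of 66 listed genes of connected pathways were measured, of which 22 rose and 10 fell under siRNA5 and 21 rose and 11 fell under siRNA8, by the authors' DESeq2 test. These are 36.1% higher and 16.4% lower under siRNA5, against 24.4% and 22.0% of all genes, and 34.4% higher and 18.0% lower under siRNA8, against 21.0% and 20.5% of all genes. Of genes with a mean of 1000 or more, 37.0% were higher under siRNA5 and 31.0% under siRNA8. The single lists below hold 2 to 17 measured genes and are given as counts. Among 9 regulators of eIF2 phosphorylation, 4 rose under siRNA5, while 3 rose and 2 fell under siRNA8. EIF2AK3 (PERK), the kinase of endoplasmic reticulum stress, rose by 0.69 (SE 0.086) under siRNA5 and was not called under siRNA8, at -0.01 (SE 0.090), per the authors' deposited tables. PPP1R15A (GADD34), which directs the phosphatase that reverses the same mark, rose with both siRNAs, by 0.37 (SE 0.090) under siRNA5 and 0.91 (SE 0.087) under siRNA8, per the authors' deposited tables. Its relative PPP1R15B gave -0.03 (SE 0.073), not called, under siRNA5 and fell by 0.17 (SE 0.074) under siRNA8 per the authors' deposited tables. Among 17 genes of mTOR signalling and cap-binding control, 7 rose and 5 fell under siRNA5 and 6 rose and 4 fell under siRNA8. PDCD4, an inhibitor of eIF4A, rose by 0.82 (SE 0.099) under siRNA5 and by 0.47 (SE 0.10) under siRNA8 per the authors' deposited tables. MKNK2, a kinase of eIF4E, rose by 0.21 (SE 0.056) under siRNA5 and by 0.56 (SE 0.055) under siRNA8 per the authors' deposited tables. MKNK1, the other eIF4E kinase, fell by 0.45 (SE 0.10) under siRNA5 and by 0.32 (SE 0.10) under siRNA8 per the authors' deposited tables.

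Of 5 genes for poly(A)-binding proteins and their partners, which join the tail of the message to eIF4G, 1 rose and 1 fell with each siRNA. PABPC4 rose by 0.39 (SE 0.040) under siRNA5 and 0.60 (SE 0.040) under siRNA8 per the authors' deposited tables. PABPC1 fell by 0.25 (SE 0.034) under siRNA5 and gave 0.06 (SE 0.034), not called, under siRNA8 per the authors' deposited tables. PAIP2, an inhibitor of poly(A)-binding protein, gave -0.04 (SE 0.067), not called, under siRNA5 and fell by 0.61 (SE 0.069) under siRNA8 per the authors' deposited tables. Among 10 scanning helicases and other cofactors, 3 rose and 2 fell under siRNA5 and 4 rose and 1 fell under siRNA8. BZW1, a mimic of eIF5, rose by 0.30 (SE 0.050) under siRNA5 and 0.32 (SE 0.050) under siRNA8 per the authors' deposited tables. NCBP1, of the nuclear cap-binding complex, fell by 0.25 (SE 0.062) under siRNA5 and gave -0.04 (SE 0.061), not called, under siRNA8 per the authors' deposited tables. The helicase DDX3X gave -0.04 (SE 0.045), not called, under siRNA5 and fell by 0.15 (SE 0.045) under siRNA8 per the authors' deposited tables. Of the 2 enzymes that make hypusine on eIF5A, DOHH fell by 0.34 (SE 0.11) under siRNA5 per the authors' deposited table, and neither was called under siRNA8.

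Further along translation, 3 of 9 genes listed for elongation rose with each siRNA, and 1 fell under siRNA8. EEF1E1 and EEF2K, which are not elongation factors themselves, rose with both. The other rises were EEF1A2 under siRNA5 and EEF1G, by 0.13 (SE 0.049), under siRNA8 per the authors' deposited tables. EEF1E1, a cofactor of the tRNA synthetase complex, rose by 0.79 (SE 0.17) under siRNA5 and by 0.51 (SE 0.17) under siRNA8 per the authors' deposited tables. EEF2K, the kinase that inhibits eEF2, rose by 0.38 (SE 0.12) under siRNA5 and by 0.77 (SE 0.12) under siRNA8 per the authors' deposited tables. EEF1A2, a tRNA-delivering factor, was called in opposite directions: it rose by 0.50 (SE 0.056) under siRNA5 and fell by 1.00 (SE 0.061) under siRNA8 per the authors' deposited tables. Of 7 termination and recycling genes, 4 rose and 1 fell under siRNA5 and 3 rose and 2 fell under siRNA8. The release factor ETF1 rose by 0.40 (SE 0.040) under siRNA5 and 0.26 (SE 0.040) under siRNA8, and DENR, a recycling factor related to EIF2D, by 0.20 (SE 0.068) under siRNA5 and 0.30 (SE 0.067) under siRNA8, per the authors' deposited tables. HBS1L, which helps to free stalled ribosomes, fell by 0.21 (SE 0.069) under siRNA5 and gave 0.14 (SE 0.067), not called, under siRNA8 per the authors' deposited tables. PELO, the partner of HBS1L, gave 0.08 (SE 0.099), not called, under siRNA5 and fell by 0.42 (SE 0.10) under siRNA8 per the authors' deposited tables. Of the 2 mitochondrial initiation factors MTIF2 gave -0.15 (SE 0.069), not called, under siRNA5 and rose by 0.18 (SE 0.067) under siRNA8 per the authors' deposited tables.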

How the data were processed

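Per the submitters' processing notes, STAR, Picard, HTSeq and DESeq2 were used with the build hg19, with no versions or settings given. The authors deposited 2 tables, 1 per siRNA. Per the file headers, the signal is a mean of normalized counts across libraries, identical in both tables, and the authors gave each fold change and SE as log2 values. The deposited Wald score is the log2 fold change over its SE, and the deposited p-values are adjusted by Benjamini-Hochberg over all rows. Both were recomputed from the tables. The tables were matched to siRNAs by the number shared with the library titles, and fold changes run knockdown over control, since ALYREF is negative in both. Reads without a feature (6.23% of the sum of means) and ambiguous reads (1.62%) are not genes and were left out. The depth per library is unknown. Gene means summed to 12632521 and none was below 11.6.

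The members and gene lists were chosen with earlier results of these data known. Group levels were rebuilt from the mean and both fold changes, for 2 libraries per group and fold changes taken as not shrunk, which the sources used here do not state. The difference of the fold changes was divided by the root of the summed squared SEs. This SE is an upper bound because the NTC is shared, and an alternative rebuilt the control variance. On simulated data for siRNA5 against siRNA8 over 11679 genes, the difference test recovered 54.0% of changes of 0.5 and 73.0% of changes of 1 on the log2 scale with 0 false calls. With the control variance rebuilt, it recovered 71.0% and 85.0% with 10 false calls. The simulation changed 200 genes, under siRNA5 alone, and took the scatter as known. In the data 32.0% of genes were called, so these rates may not carry over. Sequence words of 42 bases and heptamers were taken from 1 transcript per gene of GENCODE 29, and starts from RefSeq. The heptamer choice used 3' UTRs of at least 20 bases, heptamers with at least 50 holders and log2 changes limited to 1.5 either way. Full statistics are given for members called in 1 direction with both siRNAs, in opposite directions, at an absolute log2 change of 0.32 or more, or in the difference test, and for EIF4E, EIF4G1, EIF2S1, EIF4EBP1, EIF5, EIF5A and EIF6, and per list for the largest called rise and fall. Python 3.11.15, pandas 2.3.3, numpy 2.4.6, SciPy 1.17.1 and matplotlib 3.10.9 were used.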

Additional observations from a re-analysis of the deposited data

Results flagged for a closer look

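For 17 members the effects of the 2 siRNAs against the same NTC differed by the test of the difference itself, at a Benjamini-Hochberg adjusted p under 0.05 over all genes (normal two-sided test on the deposited fold changes and SEs). Values are the log2 change under siRNA5 minus that under siRNA8.

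Lower under siRNA5 were EIF4G3 at -0.67 (adjusted p = 2.71e-10), EIF2D at -0.44 (adjusted p = 0.00327) and EIF2B3 at -0.41 (adjusted p = 0.0061). EIF2S2 at -0.31 (adjusted p = 0.000375) had been called in opposite directions with the siRNAs. EIF4A2 at -0.31 (adjusted p = 0.0002), EIF5A2 at -0.30 (adjusted p = 0.0169) and EIF4EBP2 at -0.29 (adjusted p = 0.00642) had been called higher under siRNA8 alone. The eIF3 subunits stood at -0.25 for EIF3I (adjusted p = 0.00394), -0.24 for EIF3D (adjusted p = 0.000145), -0.24 for EIF3M (adjusted p = 0.00993), -0.20 for EIF3H (adjusted p = 0.0149) and -0.16 for EIF3A (adjusted p = 0.0372).

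Higher under siRNA5 were EIF1 at 0.25 (adjusted p = 0.00117), EIF4G2 at 0.40 (adjusted p = 2.18e-13), EIF4B at 0.42 (adjusted p = 6.07e-09), EIF4ENIF1 at 0.47 (adjusted p = 0.000899) and EIF4E at 0.55 (adjusted p = 0.000432). In EIF1 and EIF4B the change against the NTC came under siRNA5, and in EIF4G2, EIF4ENIF1 and EIF4E the larger change came under siRNA8.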

How the results depend on the processing

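Over all alternatives 621 of 684 member values kept their direction and their side of the threshold, 42 no longer passed it, 12 newly passed and 9 changed sign. The 621 include values that were never called, so they do not measure how many calls held. Of the 42 lost calls, 13 came with an adjusted p threshold of 0.01 and 27 with a minimum absolute log2 change of 0.32. These 2 settings can only remove calls. With an adjusted p threshold of 0.01, 5 members fell under siRNA5. Under siRNA8 the rises of EIF1B, EIF2S2, EIF3F and EIF3G no longer passed, nor did the falls of EIF2B4 and EIF3J-AS1. The DESeq2 adjusted p was 0.0122 for EIF3F and 0.0177 for EIF3G, so the count of eIF3 rises under siRNA8 depends on the threshold. With a minimum absolute log2 change of 0.32, 4 rose and 4 fell under siRNA5 and 3 rose under siRNA8. Among the 32 initiation factor subunits alone, 5 fell under siRNA5 and 2 under siRNA8. Without the members that hold a heptamer, an alternative chosen after seeing the data, 3 fell under siRNA8 and 0 were higher under siRNA5 than under siRNA8 by the difference test, with 1 at an unadjusted p under 0.05 (EIF2B2). With the control variance rebuilt, 6 members were higher and 16 lower under siRNA5 than under siRNA8. Calls also moved when fold changes were centred on genes with a mean of at least 500: 2 no longer passed and 3 newly passed. The 9 sign changes were all of members that were not called. Centred on the median of all genes, EIF6 under siRNA5 was -0.0030. Centred on genes with a mean of at least 500, whose median was 0.04 under siRNA5 and 0.03 under siRNA8, the siRNA5 values were -0.0075 for EIF2S1, -0.028 for EIF3D, -0.014 for EIF3G, -0.026 for EIF5A, -0.0083 for EIF5A2, -0.0017 for EIF5AL1 and -0.031 for EIF6, and under siRNA8 EIF3I was -0.0070. No paired analysis was possible because the tables hold no value per library, and for the same reason no library was left out in turn. Members with low means, such as EIF3J-AS1 and EIF4E3, have wide intervals.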
